A study of Drosophila melanogaster with 2 samples.

Results

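The genes described here encode the machinery that brings RNA polymerase II to promoters and lets it leave them. They were the protein-coding genes of the Ensembl fly annotation whose symbol starts with MED, Taf, TfII or Nelf-, and they numbered 51 of 13968. Of these, 25 encode Mediator subunits, 15 encode TBP-associated factors (TAFs), 9 encode general or elongation factors named TfII, and 2 encode subunits of the negative elongation factor NELF. The study was a single-factor ChIP-seq of Crc, which is the fly counterpart of the stress-response activator ATF4 and belongs to the basic leucine zipper family. Its 1 group held 2 biological replicates of whole Drosophila melanogaster embryos of both sexes, aged 0-24 hours, of the line crc-MiMIC-GFP. In that line an eGFP exon lies in an intron of crc, so Crc is made as an eGFP fusion, and chromatin was drawn down with an antibody to GFP. Both replicates carried this insertion, the whole organism was used without sorting, and no untagged library was analysed here.

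Mediator is a large complex that passes signals from DNA-bound activators to RNA polymerase II, and its subunits form head, middle and tail modules around the scaffold subunit MED14. TFIID, built from TBP and the TAFs, recognises core promoters, and TFIIA, TFIIB, TFIIE and TFIIF complete the preinitiation complex. NELF then holds the polymerase in a pause shortly downstream of the start, a step first described in detail at fly heat shock genes. Activators of the ATF4 family are known to bind C/EBP-ATF response elements (CAREs) as heterodimers.

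A gene was scored by its strongest peak whose summit lay within 500 bp of one of its annotated transcription starts. The authors deposited a candidate list per replicate, 1 for both replicates pooled, and an optimal list holding the peaks kept by their reproducibility filter. Every peak carries a signal value from the authors' peak caller, in the caller's own units, and the signals printed below are these values. The lowest signal among the 2420 optimal peaks was 63.98. Pooled candidates left off that list are called failed, and near the genes described here their signals were at most 54.6. The split thus followed pooled signal, and an optimal peak need not be strong in both replicates. The optimal TfIIA-S peak ranked 22356 in replicate 1 and 1443 in replicate 2 at its pooled summit. The failed Taf2 candidate ranked 2542 in replicate 1 and 4624 in replicate 2. Read depth is unknown and replicate lists were scored separately, so replicate signals are best read with their ranks among 30000 candidates.

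An optimal peak lay near 13 of the 51 genes (25.5%, Wilson 95% interval 15.5 to 38.9%), against 11.5% of all protein-coding genes. The 13 were MED4, MED6, MED7, MED16, MED17, MED27 and MED30, together with Taf4, TfIIA-L, TfIIA-S, TfIIB, Nelf-A and Nelf-E. A pooled candidate that failed the filter was the strongest for 23 genes, and 15 genes had none. Pooled candidates of any strength were near 36 genes (70.6%), against 45.5% of all genes. Among genes with a candidate, 36.1% of these reached the optimal list, against 25.3% of all genes. The median pooled signal of genes with a candidate was 36.7 in these 36 genes and 37.8 in all such genes. The intervals cover counting error only, and no test was run, since genes are not replicates.

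Most of these peaks lie between a pair of closely spaced genes. When each summit was credited only to the gene with the nearest start, 5 of the 51 genes (9.8%) kept an optimal peak, against 8.49% of all genes. The 5 were MED4, MED7, MED16, Taf4 and TfIIA-S. MED6, MED17, MED27, MED30, TfIIA-L, TfIIB, Nelf-A and Nelf-E each shared their peak with a gene whose start was nearer to the summit.

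DNA around the summits of 5 peaks is shown to give the setting of the strongest peak of each group, with MED27 as the next strongest. Each stretch is dm6 reference sequence from RefSeq, read 5′ to 3′ on the strand of the named gene, within 100 bp of the summit and cut where an annotated exon begins. Capitals mark a TATA box (TATAAA), the only match in these stretches among the elements searched below.
MED30: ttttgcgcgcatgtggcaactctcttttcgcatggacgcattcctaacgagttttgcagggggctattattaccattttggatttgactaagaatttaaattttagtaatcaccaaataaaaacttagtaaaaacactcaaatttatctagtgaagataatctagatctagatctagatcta
MED27: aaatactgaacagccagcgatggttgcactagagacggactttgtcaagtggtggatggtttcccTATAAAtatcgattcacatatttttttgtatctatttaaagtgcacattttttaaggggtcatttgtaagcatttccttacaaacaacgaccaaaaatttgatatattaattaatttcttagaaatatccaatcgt
Taf4: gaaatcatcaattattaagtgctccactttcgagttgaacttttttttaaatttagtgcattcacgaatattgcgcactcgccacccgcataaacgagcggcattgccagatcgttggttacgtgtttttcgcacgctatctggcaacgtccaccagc
TfIIA-L: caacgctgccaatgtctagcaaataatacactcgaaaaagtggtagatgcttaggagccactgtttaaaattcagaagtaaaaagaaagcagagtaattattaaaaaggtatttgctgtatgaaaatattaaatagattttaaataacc
Nelf-E: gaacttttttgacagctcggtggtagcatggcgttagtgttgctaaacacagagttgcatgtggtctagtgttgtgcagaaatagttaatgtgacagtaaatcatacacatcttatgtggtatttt

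The MED30 stretch, chr3L:654181-654362 on the minus strand, begins at the base next to the start of Rev1 on the opposite strand. The MED27 stretch, chr3R:5654881-5655081 on the plus strand, lies in intergenic DNA, with the TATA box 35 bases before the summit. The Taf4 stretch, chr3L:16113632-16113789 on the plus strand, lies in a Taf4 intron and ends at the base before an internal Taf4 start. The TfIIA-L stretch, chr3R:27253183-27253331 on the plus strand, lies in a TfIIA-L intron and begins next to the start of pll on the other strand. The Nelf-E stretch, chr3L:8600880-8601005 on the minus strand, is the whole 126-base gap between the divergent starts of RpL14 and Nelf-E. The GC content was 33.5% for MED30, 32.3% for MED27, 44.3% for Taf4, 30.2% for TfIIA-L and 38.9% for Nelf-E. None of the 5 stretches held a CARE, a DRE, a Motif 1, a GAGA repeat or the E-box searched below.

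**Figure D1:**
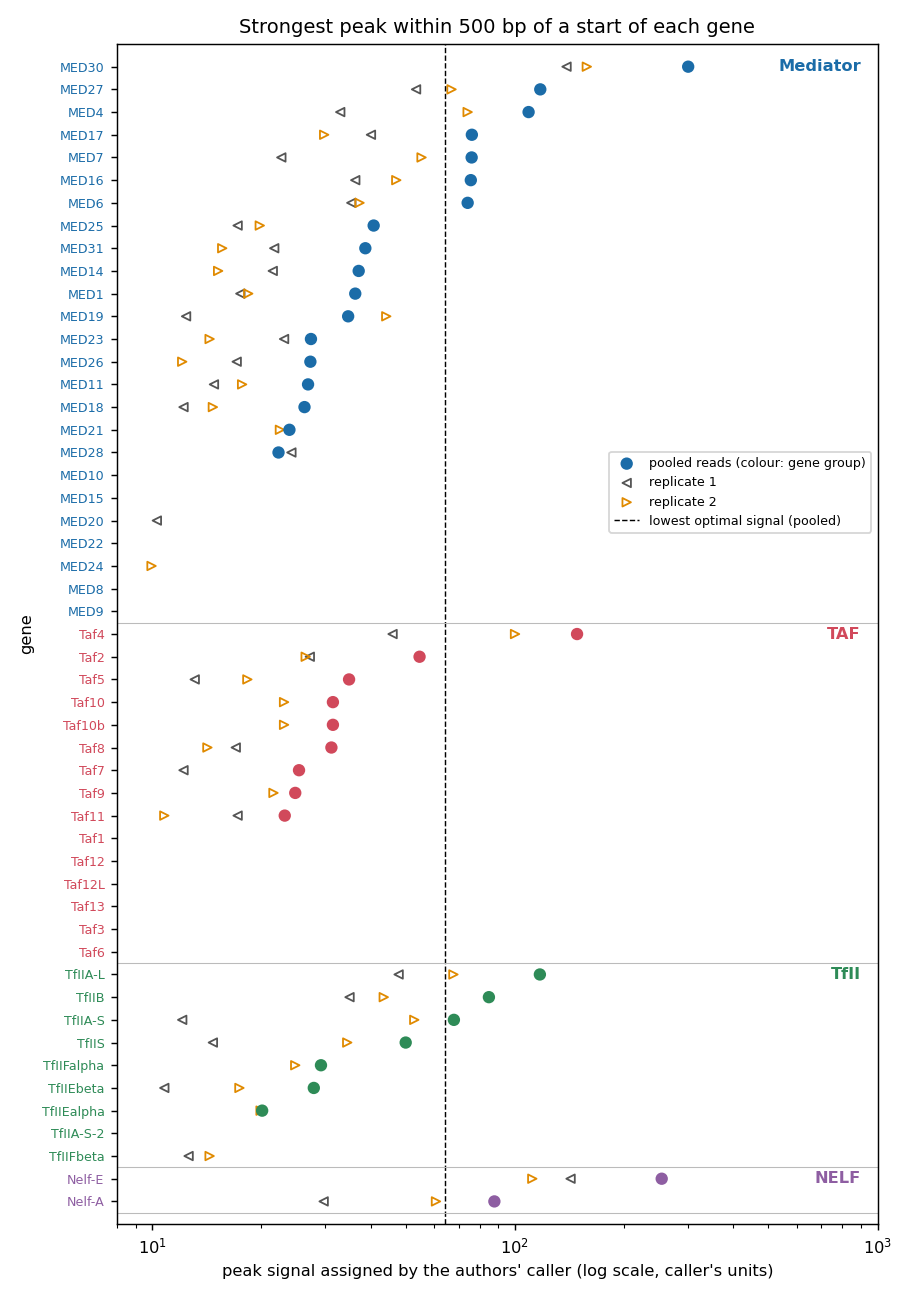
Strongest candidate peak within 500 bp of a start of each of the 51 genes, with signal on a log axis in the caller's units and genes in rows by group. Filled circles are the pooled reads, open triangles the separate replicates, and the dashed line is the lowest optimal signal, 63.98. MED30 at 300.5 and Nelf-E at 254.0 lie farthest right, and 1 of the 15 TAF genes lies beyond the line.

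Mediator genes had an optimal peak in 7 of 25 cases (28%, Wilson 95% interval 14.3 to 47.6%). Of the others, 11 had a failed candidate and 7 had no pooled candidate. Among these 25 genes, the head, middle and tail each included a gene with an optimal peak. The 4 kinase module genes have other symbols and are not among the 25, and none of them had an optimal peak. The head had 2 of 7, the middle 2 of 8 and the tail 1 of 5. The subunits not assigned to a module here had 2 of 4, and the share over all genes was 11.5%. MED14, the scaffold, had a failed candidate of 37.1. These counts are too small to rank the modules.

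MED30, a subunit without a clear yeast counterpart, carried the strongest peak of all 51 genes. Its signal was 138.8 in replicate 1 and 157.9 in replicate 2, which ranked 83 and 154 among each replicate's candidates, and 300.5 in the pooled reads. The summit lay 192 bp upstream of MED30 (FBgn0035149, minus strand of chromosome 3L, peak at 654164-654382) and 82 bp from the start of Rev1, a translesion DNA polymerase gene. Both replicates placed it among their strongest regions.

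MED27, at the junction of tail and head in mammalian Mediator, came next in the complex. Its signal was 53.4 in replicate 1, 66.9 in replicate 2 and 117.5 pooled. The summit was 158 bp upstream of MED27 (FBgn0037359, 3R:5654781-5655180) and 120 bp from the start of elm. Ranks were 720 in replicate 1 and 945 in replicate 2.

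MED4 and MED7 belong to the middle module. MED4 (FBgn0035754, 3L:7250458-7250857) had 33 in replicate 1, 74.1 in replicate 2 and 109.1 pooled, with the summit 131 bp upstream in intergenic DNA and no other start within 500 bp. MED7 (FBgn0051390, 3R:10760887-10761286) had 22.7 in replicate 1, 55.3 in replicate 2 and 76 pooled, with the summit 55 bp upstream of MED7 and 223 bp from Cap-H2, a condensin subunit gene. Both peaks were weaker in replicate 1 by rank: MED4 ranked 1764 there and 790 in replicate 2, and MED7 ranked 3773 there and 1317 in replicate 2.

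MED17 and MED6 belong to the head, which contacts the polymerase. MED17 (FBgn0038578, 3R:18188638-18189037) had 40.1 in replicate 1, 29.8 in replicate 2 and 76.1 pooled, with the summit 234 bp upstream of MED17 and 131 bp from CG12321. MED6 (FBgn0024330, 3R:9767639-9768038) had 35.4 in replicate 1, 37.3 in replicate 2 and 74.1 pooled, with the summit in the 5′ UTR of MED6 and of Naa80, 24 bp upstream of 1 of the 5 annotated MED6 starts and 5 bp from a start of Naa80. By rank these 2 peaks were the stronger in replicate 1, MED17 at 1227 against 3819 in replicate 2, and MED6 at 1563 against 2584.

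MED16 was the only tail gene with an optimal peak. It had 36.3 in replicate 1, 47.1 in replicate 2 and 75.6 pooled, with ranks of 1476 and 1730. The summit lay 81 bp upstream of MED16 (FBgn0034707, 2R:22182857-22183256) and 178 bp from CG11170.

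The failed Mediator candidates ran from 22.3 for MED28 to 40.8 for MED25, all below the lowest optimal signal. MED25, a target of the viral activator VP16 in human cells, had 17.2 in replicate 1 and 19.8 in replicate 2. MED31, a middle subunit, had 21.7 and 15.6 in these replicates and 38.7 pooled, where the replicate 1 value came from 150 bp upstream and that at the pooled summit was 14.9, and MED14 had 21.5 and 15.2. MED1, which binds nuclear receptors in mammals, had 17.5 in replicate 1, 18.4 in replicate 2 and 36.3 pooled. MED19 had 44.2 in replicate 2 (rank 1940) and 34.7 pooled, with the pooled summit 81 bp downstream of the start, in the MED19 5′ UTR. Replicate 1 had no candidate within 100 bp of that summit, and its strongest, 12.4 (rank 19729), lay 98 bp upstream of the start. The remaining failed candidates, at MED11, MED18, MED21, MED23, MED26 and MED28, had pooled signals of at most 27.4.

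No pooled candidate lay near MED8, MED9, MED10, MED15, MED20, MED22 or MED24. In the separate replicates MED20 had a candidate of 10.3 in replicate 1, close to the lowest of that list at 10.26, and MED24 had 9.96 in replicate 2, where the lowest was 9.23. MED15, the tail subunit that lipid-regulating SREBP activators bind in animals, had an optimal summit just past the distance limit. That peak (2L:472264-472663, signal 233.0) lay 549 bp from the MED15 start and 264 bp from the start of CG4297. No optimal summit lay inside any of the 51 genes beyond 500 bp from a start.

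TAF genes had 1 optimal peak among 15 (6.67%, Wilson 95% interval 1.19 to 29.8%), against 11.5% of all genes. Of the others, 8 had a failed candidate and 6 had no pooled candidate. The interval of the TAF share overlaps that of Mediator, and the difference between the 2 complexes was not tested. Among genes with a candidate the optimal share was 1 of 9 for TAFs (11.1%) and 7 of 18 for Mediator (38.9%). It was 3 of 7 for TfII genes (42.9%), against 25.3% of all genes with a candidate.

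Taf4, a core TFIID subunit that pairs with Taf12 through histone folds, had the only optimal peak of the TAF genes. Its signal was 46 in replicate 1 (rank 937), 100.1 in replicate 2 (rank 426) and 148.4 pooled. The summit (peak 3L:16113532-16113931) lay in a Taf4 intron, 58 bp upstream of an internal start, and Taf4 (FBgn0010280) has 3 annotated starts. Replicate 2 placed its own summit 159 bp upstream of that start. No start of another gene lay within 500 bp.

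Taf2, which contacts the initiator in TFIID, had the strongest failed candidate of all 51 genes. It had 27.2 in replicate 1, 26.5 in replicate 2 and 54.6 pooled, 302 bp upstream of Taf2 and inside the 5′ UTR of CalpB. Taf5, a scaffold subunit of TFIID, had 13.1 in replicate 1, 18.3 in replicate 2 and 34.9 pooled. Taf10 and Taf10b are histone-fold paralogues whose divergent starts lie 45 bp apart, and they shared 1 candidate of 31.5 in a Taf10 coding exon. That candidate had 23.1 in replicate 2 and no counterpart in replicate 1. The others, at Taf7, Taf8, Taf9 and Taf11, ran from 23.2 to 31.2. No pooled candidate lay near Taf1, Taf3, Taf6, Taf12, Taf12L or Taf13, and none of these 6 had a candidate in either replicate.

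TfII genes had 3 optimal peaks among 9 (33.3%, Wilson 95% interval 12.1 to 64.6%), against 11.5% of all genes. Of the others, 4 had a failed candidate and 2 had no pooled candidate. TFIIA steadies TBP on the promoter, and both of its main subunit genes had an optimal peak. TfIIA-L, which encodes the large subunit precursor, had 47.8 in replicate 1 (rank 881), 67.7 in replicate 2 (rank 927) and 117.2 pooled. Its summit (peak 3R:27253031-27253430, FBgn0011289) lay in a TfIIA-L intron, 199 bp upstream of an internal start and 49 bp from the start of pll, the pelle kinase gene.

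TfIIA-S, which encodes the small subunit, had the weakest optimal peak of the 13 and the least even pair of replicates. At the pooled summit it had 11.8 in replicate 1 (rank 22356), 52.8 in replicate 2 (rank 1443) and 67.9 pooled. The strongest replicate 1 candidate within 500 bp was 12.1 and lay 443 bp downstream of the start. The pooled summit lay 54 bp upstream of TfIIA-S (FBgn0013347, 3R:23890914-23891313), with no other start within 500 bp. TfIIA-S-2, the other small-subunit gene, had no candidate in any list.

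TfIIB links TBP to the polymerase. It had 35 in replicate 1 (rank 1597), 43.5 in replicate 2 (rank 2001) and 84.8 pooled, with the summit 354 bp upstream of TfIIB (FBgn0004915, 2L:10430784-10431183) and 66 bp from Bug22. Of the 13 optimal summits this one was the farthest from the scored gene's own start.

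TfIIS, which rescues backtracked polymerase, had a failed candidate of 50, with 14.7 in replicate 1 and 34.5 in replicate 2. Its pooled summit lay 8 bp downstream of the start, and replicate 1 had no candidate within 100 bp of it. Both TFIIE genes had failed candidates, TfIIEbeta at 27.9 and TfIIEalpha at 20.1, the lowest of the 36. TfIIFalpha had 29.2, with 24.8 in replicate 2 and none in replicate 1. TfIIFbeta had candidates of 12.6 in replicate 1 and 14.4 in replicate 2, but none in the pooled list.

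NELF was the only group in which every listed gene had an optimal peak, against 11.5% of all genes. However, it has 2 genes by this naming and the Wilson interval reaches down to 34.2%. Nelf-E, whose product carries an RNA-recognition motif, had 142.4 in replicate 1 (rank 75), 111.7 in replicate 2 (rank 331) and 254.0 pooled. Its summit (peak 3L:8600751-8601150, FBgn0017430) lay 72 bp upstream of Nelf-E and 55 bp from RpL14, a ribosomal protein gene. Nelf-A had 29.7 in replicate 1 (rank 2151), 60.6 in replicate 2 (rank 1120) and 87.8 pooled. The Nelf-A summit (peak 3R:21223402-21223801, FBgn0038872) lay 102 bp upstream of Nelf-A and 18 bp from CG3337. Both summits were nearer to the other gene, so neither NELF gene kept a peak credited to the nearest gene only. The complex has 2 further subunits under other symbols, NELF-B at 27.8 and TH1, the NELF-D gene, at 59.5, and both of these candidates failed the filter.

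**Figure D2:**
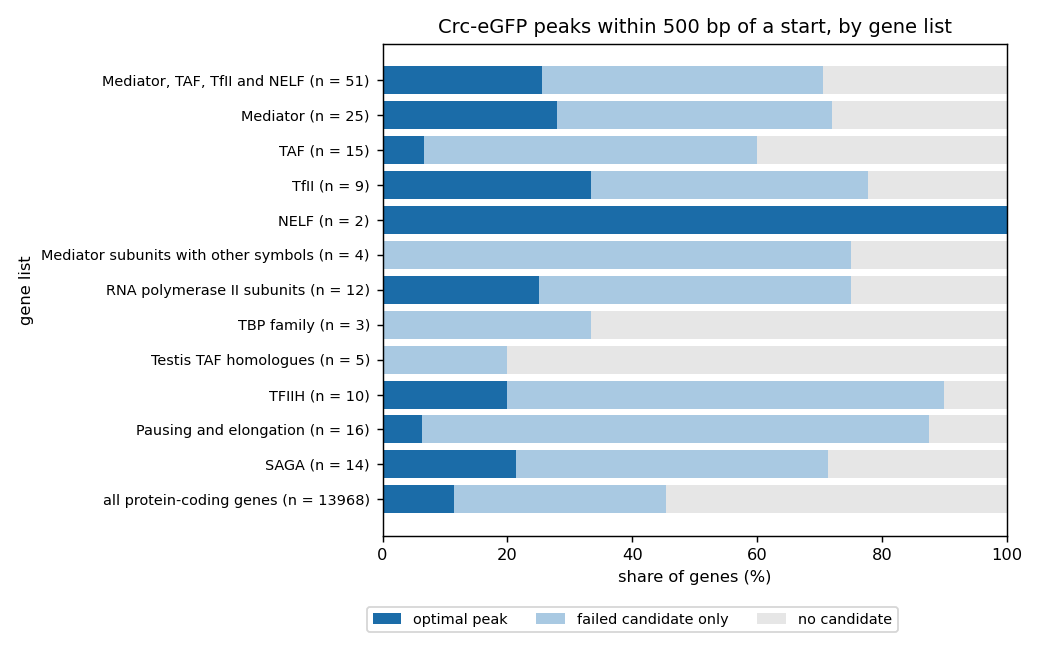
Share of genes, in percent, with an optimal peak, with only a failed candidate, or with no pooled candidate within 500 bp of a start. Bars are the 4 groups, 7 further lists of transcription factors and cofactors, and all protein-coding genes. Optimal peaks were near 25.5% of the 51 genes, 28% of Mediator genes and 6.67% of TAF genes, against 11.5% of all genes in the bottom bar.

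All 13 optimal summits lay upstream of the start they were assigned to (Wilson lower bound 77.2%), at a median of 102 bp and between 24 and 354 bp. Of the 1605 genes with an optimal peak in the whole annotation, 86.2% had the summit upstream, where a summit shared by several genes counts once for each. The failed candidates were less one-sided, with 14 of 23 upstream (60.9%), against 65.3% of all genes with a failed candidate. The 13 genes were on the side that most genes with an optimal peak were on.

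**Figure D3:**
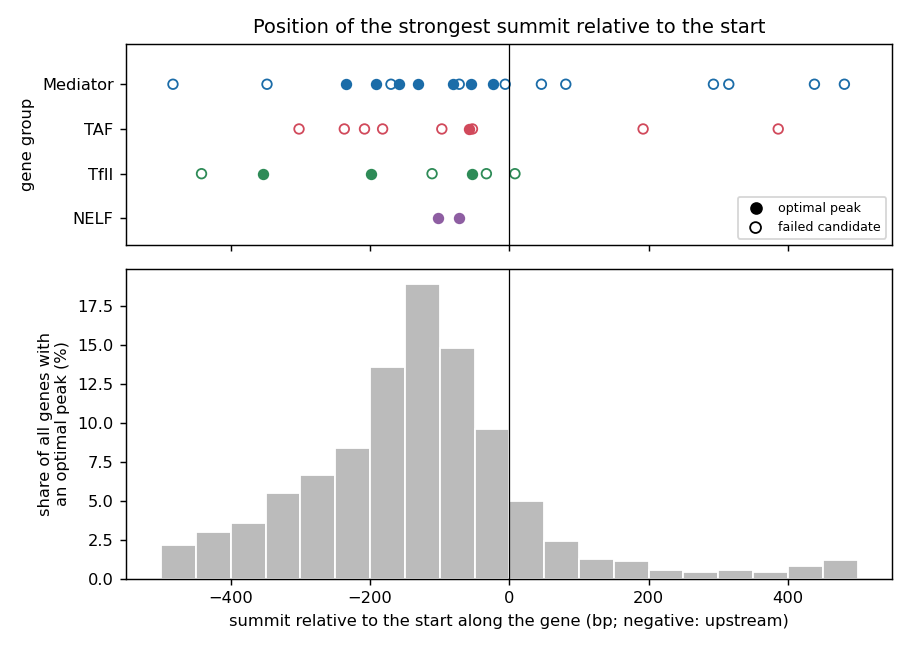
Position of the strongest summit relative to the assigned start, in bp along the gene, for each gene with a pooled candidate (upper panel, filled for optimal and open for failed) and as a histogram over the 1605 genes with an optimal peak (lower panel, percent per bin). The filled points lie between 354 and 24 bp upstream, where the histogram is highest.

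Shared promoters were common. Of the 13 optimal peaks, 10 (76.9%) also lay within 500 bp of the start of another protein-coding gene, always on the opposite strand, against 56.4% of all genes with an optimal peak, again counted per gene. The gene described here was the nearest in 5 of 13 cases (38.5%), against 73.9% of all genes with an optimal peak. MED4, Taf4 and TfIIA-S were the 3 without another start in reach.

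These genes also sit closer to their neighbours than most. Another start lay within 500 bp for 32 of 51 (62.7%), against 30.8% of all genes, and the median distance to the nearest other start was 333 bp, against 1379.5 bp. With such a neighbour, 10 of 32 had an optimal peak (31.2%), against 21.7% of all genes with a neighbour. Without one, 3 of 19 had an optimal peak (15.8%), against 6.92% of all such genes. A single annotated start was the rule, for 45 of the 51 genes (88.2%), against 73.5% of all genes. Among genes with 1 start, 10 of 45 had an optimal peak (22.2%), against 8.32% of all.

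The separate replicates gave similar counts. Among each replicate's 2420 strongest candidates, replicate 1 held a summit near 11 of the 51 genes (21.6%), against 11.8% of all genes. Replicate 2 held one near 12 of them (23.5%), against 11.5% of all genes. The replicates had 9 genes in common. MED6 and MED17 were among the strongest of replicate 1 only, and MED7, MED19 and TfIIA-S among those of replicate 2 only. All 13 genes with an optimal peak were in at least 1 of these sets. Over all genes, 18 of the 1605 with an optimal peak were in neither set. The optimal list comes from the same 2 libraries, so this overlap is not independent support.

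Candidates of any strength were present in both replicates for 29 genes (56.9%) and in neither for 12 (23.5%). They were in replicate 1 alone for 3 (5.88%) and in replicate 2 alone for 7 (13.7%). Over all genes the shares were 34.7% for both, 38.7% for neither, 9.78% for replicate 1 alone and 16.8% for replicate 2 alone. For the 29 genes, Spearman's rho between the replicates' signals was 0.635 across genes, against 0.725 across the 4852 genes with both. The points share 2 libraries and are not independent replicates. The ratio of replicate 2 to replicate 1 had a median of 1.2 and ran from 0.625 to 4.37, the highest at TfIIA-S. The median over all genes was 1.24. Each value is the strongest candidate within 500 bp in that replicate, so the 2 can lie at different sites. At TfIIA-S replicate 1 lay 443 bp downstream of the start and replicate 2 lay 58 bp upstream. At MED19 replicate 1 lay 98 bp upstream and replicate 2 lay 121 bp downstream.

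**Figure D4:**
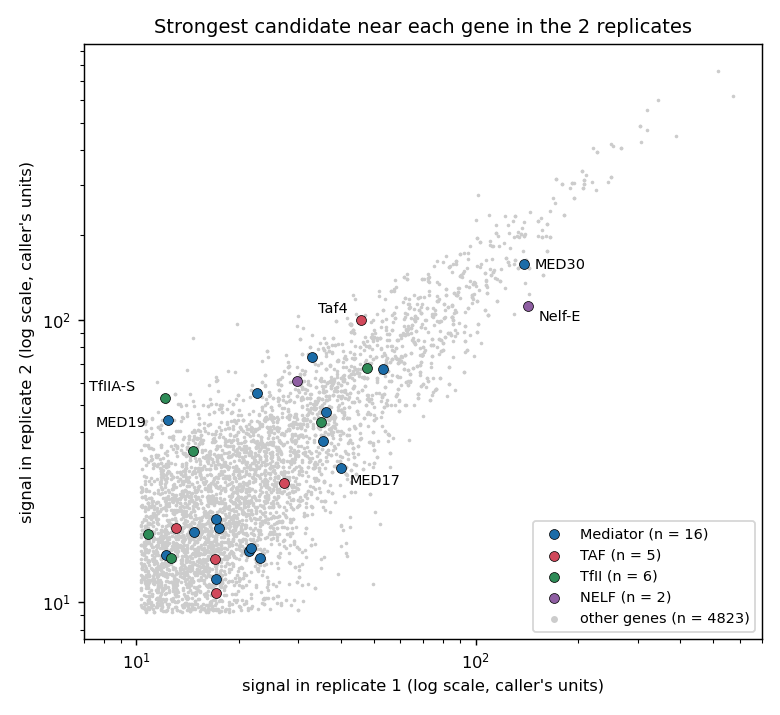
Strongest candidate near each gene in replicate 1 (horizontal) and replicate 2 (vertical), on log axes in the caller's units. Points are the 29 genes and the other genes with a candidate in both, and the 2 values of a gene can come from different sites. MED30 and Nelf-E are high in both replicates, while TfIIA-S and MED19 lie at the upper left edge of the cloud, with 52.8 and 44.2 in replicate 2 against 12.1 and 12.4 in replicate 1.

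Promoter elements were looked up in the reference sequence on both strands, in the 300 bp from 250 bp before to 50 bp after the 5′ end of each gene. They were the DRE (TATCGATA, bound by DREF), Motif 1 (GGTCACACT, bound by M1BP), the CARE (TGATGNAAC or TGATGNAAT), and the TATA box (TATAAA). The E-box was searched as CACGTG. The repeat read by the GAGA factor was searched as a run of 7 alternating bases, GAGAGAG. Matches of different elements were counted separately, also where they overlapped. Peak classes used any annotated start, so at MED6, Taf4 and TfIIA-L the window is not at the start near the optimal summit. A match is a description of the letters, not a proven site, and no match says only that these letters are not in the window.

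Motif 1 was present at 12 of the 51 promoters (23.5%), against 6.04% of all promoters. Of these 12 genes 7 had no pooled candidate. Of the 13 genes with an optimal peak 1 had it (7.69%), and of the 23 with a failed candidate 4 (17.4%). Of the 15 with no pooled candidate 7 had it (46.7%). The same shares over all genes were 7.91%, 9.12% and 3.72%. Within Mediator the counts were 0 of 7, 3 of 11 and 6 of 7. MED8, MED10, MED15, MED20, MED22 and MED24 were the 6 without a pooled candidate, and MED9 was the seventh gene of that class. MED20 and MED24 had a weak candidate in a single replicate each, as given above. Outside Mediator the element was found only at Taf4 with an optimal peak, Taf5 with a failed candidate and Taf1 with no candidate. The split by peak class was not tested.

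Seen from the element, 1 of the 12 Motif 1 genes had an optimal peak (8.33%), against 15.1% of all genes with Motif 1. A pooled candidate of any strength was near 5 of them (41.7%), against 66.4% of all genes with Motif 1. Among the 39 without the element, 12 had an optimal peak (30.8%), against 11.3% of all genes without it. Of the 12 sites, 9 are shown as examples of the split by peak status, a choice made after the values were seen. Each line is dm6 sequence from RefSeq on the gene's strand, with Motif 1 or its reverse complement in capitals and 10 bases on each side.
MED10 (chr3L:16232006-16232034, +): gcgattgaacAGTGTGACCttgctattcc
MED15 (chr2L:473009-473037, +): tgcctgaaacGGTCACACTgtgctcagag
MED20 (chr2L:8072823-8072851, -): agtcagcactGGTCACACTggacgctttt
MED22 (chrX:928122-928150, +): gaaaatacgtGGTCACACTgtacatataa
MED24 (chr3L:8191277-8191305, +): aagatacctcGGTCACACTgagcgctgct
Taf1 (chr3R:6646894-6646922, +): gtccatcgacGGTCACACTtacgcgtgtg
MED11 (chr3L:18745837-18745865, +): ctcgtgttctGGTCACACTgttatctggt
MED19 (chr3L:17846475-17846503, -): gtcgcaatgcGGTCACACTggttcgcgga
Taf4 (chr3L:16113213-16113241, +): tgtcgccaacGGTCACACTgcacaactcg

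The first 6 of these genes had no pooled candidate, MED11 and MED19 had failed candidates, and Taf4 had an optimal peak. The elements sat close to the annotated start in nearly every case. The first base lay between 9 bp before and 18 bp after the start in 11 of the 12 genes, counting MED8, MED23 and Taf5 on 2R, whose sites are not printed, and 68 bp before it at MED10. At Taf4 the element was at the gene's first start, 505 bp from the optimal summit, which belongs to the internal start. At MED19 it lay 69 bp from the summit of the failed candidate.

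**Figure D5:**
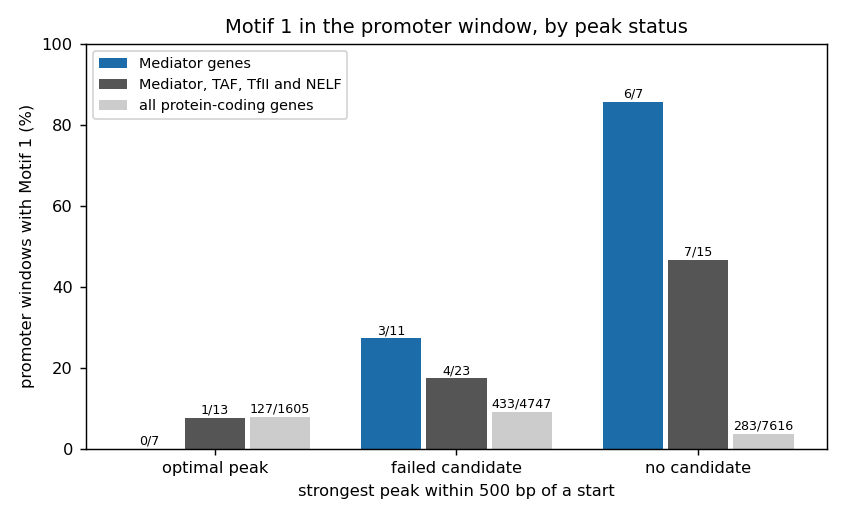
Share of promoter windows with Motif 1, in percent, by the class of the strongest peak, for Mediator genes, all 51 genes and all protein-coding genes, with counts above the bars. The share is 85.7% in Mediator genes with no pooled candidate and 0 in those with an optimal peak. Over all genes it is lowest, 3.72%, in the class with no pooled candidate.

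The DRE was present at 9 of the 51 promoters (17.6%), against 9.36% of all promoters, and was spread over the peak classes. It was found at 3 of the 13 genes with an optimal peak (23.1%) and 3 of the 23 with a failed candidate (13%). Of the 15 without a pooled candidate 3 had it (20%). Over all genes the shares of these classes were 14%, 13.1% and 6.07%. The 3 sites at optimal peaks, chosen after the values were seen, are printed with the DRE in capitals and 10 bases on each side, from dm6 on the gene's strand.
MED7 (chr3R:10761204-10761231, -): acctttaagtTATCGATAgctaggcacg
MED17 (chr3R:18189035-18189062, +): agcactcattTATCGATAgccggccgca
Nelf-A (chr3R:21223578-21223605, +): agcgattattTATCGATAgctggtagcc

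The Nelf-A element lay 11 bp from its summit, while those of MED7 and MED17 lay 130 and 210 bp away. Within 100 bp of the 13 summits the DRE was therefore found once (7.69%), against 7.27% of all optimal summits near genes.

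The CARE was rare. It was present at 2 of the 51 promoters (3.92%), MED1 and TfIIA-S, against 1.82% of all promoters. Both are shown, with the CARE or its reverse complement in capitals, because they were the only matches to the element of Crc's own family, a choice also made after the values were seen.
TfIIA-S (chr3R:23891276-23891304, -): cccagaaaaaTGATGAAATgttccctttg
MED1 (chr3L:21634677-21634705, -): atgaggcacaATTACATCAtaaaaaatag

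The TfIIA-S match lay 176 bp from the optimal summit and the MED1 match 173 bp from the failed one. None of the 13 optimal summits had a CARE within 100 bp, against 1.31% of all optimal summits near genes. TATAAA was present within 100 bp of 2 of the 13, MED17 and MED27 (15.4%), against 31.9%. CACGTG was present at 1, MED17 (7.69%), against 2.8%. Motif 1 and the GAGA repeat were at none of the 13, against 2.71% and 4.47%. With 13 summits, shares of this size rest on 0 to 2 genes each.

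Partners of these genes under other symbols gave the wider setting. Of the 4 subunits of the Mediator kinase module, none had an optimal peak. Pooled signals were 58.9 at skd, 29 at Cdk8 and 26.8 at CycC, and kto had no pooled candidate. Of 12 RNA polymerase II subunit genes 3 had an optimal peak, Polr2H (173.2), Polr2F (149.9) and Polr2B (100.4). Of 10 TFIIH genes 2 had one, Ssl1 (793.5) and Tfb4 (66.5). Of 14 SAGA genes 3 had one, Gcn5 (130.6), the acetyltransferase, Ada3 (111.2) and Ada2b (76.3). Of 16 pausing and elongation genes 1 had one, lilli (113.0), a super elongation complex scaffold. The nearest start to the summit belonged to another gene at Polr2H (CG11247), Ssl1 (Chro), Tfb4 (Vps29) and lilli (NTPase). Polr2B, Gcn5 and Ada3 were themselves nearest but had 140up, ver and CG7536 within 500 bp, while Polr2F and Ada2b had no other start in reach.

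The TBP family and the testis TAF homologues had none. Trf2 had a failed candidate of 29.5, and Tbp and Trf had no pooled candidate. Trf shares a divergent promoter with MED20, their starts being 47 bp apart, and neither had a pooled candidate. Of the 5 testis homologues, which include Taf12L, mia had a failed candidate of 23. All these shares compare with 11.5% over all genes, and no difference between lists was tested.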

How the data were processed

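Crc-eGFP ChIP-seq of 2 biological replicates gave narrowPeak lists on dm6 (Release 6): candidates per replicate (30000 each), pooled candidates (24369) and 2420 optimal peaks, per the deposited file listings. The deposited signal value is the authors' peak caller's own, with no stated normalization. Aligner and caller stay unnamed, as not given in the sources used here. Read depth is unknown, and the control was not analysed here. The dm3 lists were not used.

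Starts were those of protein-coding genes in Ensembl BDGP6.54, release 115. Sequences came from the RefSeq Release 6 genome, checked at 51 of 51 first codons. Each gene took its strongest peak with the summit within 500 bp of any start. The assignment was tested on simulated data with 200 planted summits. Shares carry Wilson 95% intervals, and no test was run. Every gene with an optimal peak and the 10 strongest failed candidates were named with values. Members and lists were chosen with earlier results of these data known. Of the SAGA symbols, 1 (Ataxn7) was not matched and not analysed. Alternatives changed the distance, the starts, the number of peaks, the crediting of shared peaks and the replicates used. Python 3.11.15, numpy 2.4.6, pandas 2.3.3, scipy 1.17.1 and matplotlib 3.10.9 were used.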

Additional observations from a re-analysis of the deposited data

How the results depend on the processing

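Of the 51 genes, 13 had an optimal peak within 500 bp, and this count was most sensitive to which peaks count and to which gene a peak is credited. With the stronger 1210 optimal peaks it was 6 (11.8%, against 6.35% of all genes), with 3 for Mediator, 1 for TfII and 1 for NELF. With each peak credited to the nearest gene only it was 5 (9.8%, against 8.49% of all genes), with 3 for Mediator, 1 for TfII and 0 for NELF. With only the 5′ end of each gene record as a start it was 10 (19.6%, against 9.91% of all genes), with MED6, Taf4 and TfIIA-L lost and a TAF count of 0. At 200 bp MED17 and TfIIB dropped out (11 genes, against 7.88% of all genes), and at 1000 bp MED15 came in (14 genes, against 13.5% of all). Taking the 2420 strongest candidates of 1 replicate in place of the optimal list repeats the counts given above, without the reproducibility filter. Replicate 1 gave 11 genes (21.6%, against 11.8% of all genes), with MED7 and TfIIA-S lost. Replicate 2 gave 12 (23.5%, against 11.5%), with MED17 and MED6 lost and MED19 gained. In both, the counts were 6 for Mediator, 1 for TAF and 2 for NELF, and for TfII they were 2 and 3. The median pooled signal was 36.7 for those of the 51 genes with a candidate and 37.9 for Mediator. These medians were 38.7 and 38.7 at 200 bp, 38.7 and 38.7 at 1000 bp, and 34.8 and 37.1 with the 5′ end only. Depth is unknown, so for a gene without a candidate no peak was detectable in these lists, which does not show absence.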
